A study of Mus musculus with 2 samples.

Results

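EHMT2 peaks of one kind are described here: narrow peaks made of repeat sequence that lay inside very long protein-coding genes of mouse embryonic stem cells. Of the 12556 peaks in the deposited list, 1056 (8.41%) belonged to this set. A peak was a member if it lay on chromosomes 1 to 19 or X, was under 1000 bp wide and had at least 50% soft-masked bases, which are the bases that the genome sequence marks as repeats. Its summit also had to lie within a protein-coding gene record spanning 300 kb or more, outside every promoter (2.5 kb before to 0.5 kb after a transcription start site). Fold enrichment and significance did not enter this rule, beyond the authors' own threshold for calling a peak.

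The cells were of the EHMT2-dTAG-mcherry line, embryonic stem cells from a BL6/129 hybrid strain grown on feeders with FBS and LIF. The endogenous EHMT2 of these cells bore a degron and HA epitopes at its end, so every value below concerns the tagged protein. Both ChIP-exo libraries came from cells kept for 24 h in DMSO, the solvent, and ChIP-exo with an anti-HA antibody trims the precipitated DNA up to the crosslinked protein. The fragments of the 2 replicates were pooled by the authors before peaks were called, so each value is a single pooled value. The spread between the replicates is not in the pooled list, so no test was made. Background at these repeats was not measured, since neither a control antibody nor EHMT2-depleted cells entered the data used here. Intervals are 95% intervals for counting error only.

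EHMT2, also called G9a, is a histone methyltransferase that works with its partner EHMT1 and places dimethylation on lysine 9 of histone H3, a mark of silent chromatin. LINE-1 elements are retrotransposons that make up much of the repeat content of mouse chromosomes. A complete mouse LINE-1 begins with a promoter built of tandem repeats called monomers, followed by a first frame for an RNA-binding protein and a second, much longer frame for a reverse transcriptase. Very long genes of the mouse consist almost wholly of intron and often serve neurons, and their introns hold many such elements.

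Most of the sequences at these peaks (76.6%) fell into the 5 largest of 35 families of related repeats, so 1 representative of each of these 5 is shown first. Each run is the 201 bases around the summit of the member that aligned to the most others of its family, read from GRCm38 (mm10). The 50 bases centred on the summit are in capitals.
Family 1, intron of Lrrc4c (chr2:96431138-96431338, plus strand): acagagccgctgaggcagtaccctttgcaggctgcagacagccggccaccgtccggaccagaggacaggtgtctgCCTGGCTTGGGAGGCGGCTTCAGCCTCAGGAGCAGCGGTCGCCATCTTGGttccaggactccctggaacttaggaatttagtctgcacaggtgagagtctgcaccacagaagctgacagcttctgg
Family 2, intron of Cdh4 (chr2:179815682-179815882, plus strand): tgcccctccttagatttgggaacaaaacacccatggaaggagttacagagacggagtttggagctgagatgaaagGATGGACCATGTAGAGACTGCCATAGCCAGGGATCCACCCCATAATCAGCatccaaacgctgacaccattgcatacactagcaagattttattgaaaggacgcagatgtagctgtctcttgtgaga
Family 3, intron of Ispd (chr12:36680382-36680582, plus strand): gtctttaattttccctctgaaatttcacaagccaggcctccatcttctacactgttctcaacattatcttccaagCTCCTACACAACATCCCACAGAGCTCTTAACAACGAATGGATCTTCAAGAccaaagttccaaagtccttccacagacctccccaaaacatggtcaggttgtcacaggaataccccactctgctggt
Family 4, intron of Slc35f1 (chr10:52949317-52949517, minus strand): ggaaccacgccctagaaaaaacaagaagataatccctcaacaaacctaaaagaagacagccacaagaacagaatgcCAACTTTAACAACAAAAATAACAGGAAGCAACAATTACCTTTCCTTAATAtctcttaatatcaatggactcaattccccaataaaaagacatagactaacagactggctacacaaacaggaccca
Family 5, intron of Nkain2 (chr10:31999111-31999311, plus strand): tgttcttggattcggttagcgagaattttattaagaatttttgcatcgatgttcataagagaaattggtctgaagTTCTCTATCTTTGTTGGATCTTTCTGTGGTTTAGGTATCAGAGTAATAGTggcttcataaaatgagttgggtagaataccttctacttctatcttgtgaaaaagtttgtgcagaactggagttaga
Families 1, 2 and 4 are written along the strand of the reverse-transcriptase frames that lay near their members, and families 3 and 5, for which too few such frames were near, along the plus strand. The capitals of the family 1 run occurred once in the assembly, those of the family 2 run 2096 times and those of the family 5 run 6870 times. The run of family 1 had 60.7% G and C and that of family 5 had 34.8%.

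The member with the highest −log10 q is shown as well, because it was a tandem array. It lay in an intron of Pkhd1, the gene of the kidney and bile duct protein fibrocystin, and held successive copies of a 212 bp unit. The pair of units on either side of the summit is shown along the strand of the element, with the bases that differ between them in capitals. The units were cut at the summit, and in a tandem array any base could serve as their boundary.
Pkhd1 unit 1 (chr1:20284281-20284492, minus strand): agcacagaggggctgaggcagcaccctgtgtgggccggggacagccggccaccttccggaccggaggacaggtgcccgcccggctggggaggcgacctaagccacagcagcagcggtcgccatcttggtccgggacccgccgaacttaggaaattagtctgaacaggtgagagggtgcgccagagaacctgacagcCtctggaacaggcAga
Pkhd1 unit 2 (chr1:20284069-20284280, minus strand): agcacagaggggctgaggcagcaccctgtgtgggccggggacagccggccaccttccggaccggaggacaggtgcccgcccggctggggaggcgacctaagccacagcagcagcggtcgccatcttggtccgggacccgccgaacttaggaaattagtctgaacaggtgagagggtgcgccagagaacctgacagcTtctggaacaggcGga
The units were the same at 210 of 212 bases (99.1%) and differed at 2. Both units and the family 1 run hold the core sequence of the YY1 motif, and the units also hold a GC box.

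These peaks lay in 391 of the 567 protein-coding genes with a span of 300 kb or more (69.0%, Wilson interval 65.03 to 72.6%). Of all 1452 summits in these genes, they made up 72.7%. The other summits there were 34 in promoters, 243 in peaks with under 50% soft-masked bases and 119 in repeat peaks of 1000 bp or wider. At the limits of the rule, the shortest host gene was Pam (300.5 kb, 1 peak with 5 fragments) and the longest gene just below was Akap13 (299.1 kb, 1 such peak with 7 fragments). The widest member was 997 bp wide with 55 fragments, and the narrowest repeat peak just over the width limit, in Agbl1, had 18 fragments. The lowest soft-masked share of a member was 50.5% (8 fragments), and the highest share just below was 48.6% (5 fragments).

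Most of these peaks were shallow, with a long upper tail. The median peak had 9 fragments at its summit over both replicates together (quartiles 6 and 16, range 4 to 75) and a fold enrichment over local background of 5.31 (interval 5.30 to 5.45, quartiles 4.54 and 7.64). The median width was 250 bp. Of the 1056 peaks, 285 (27.0%) rested on 4 to 6 fragments, 455 (43.1%) on 7 to 13, and 316 (29.9%) on 14 or more. The depth class went with sequence. The largest family supplied 7.72% of the shallowest class, 59.8% of the middle class and 96.8% of the deepest. The median G and C content of the 201 bases around the summit was 45.3%, 49.3% and 63.4% in the same classes.

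**Figure D1:**
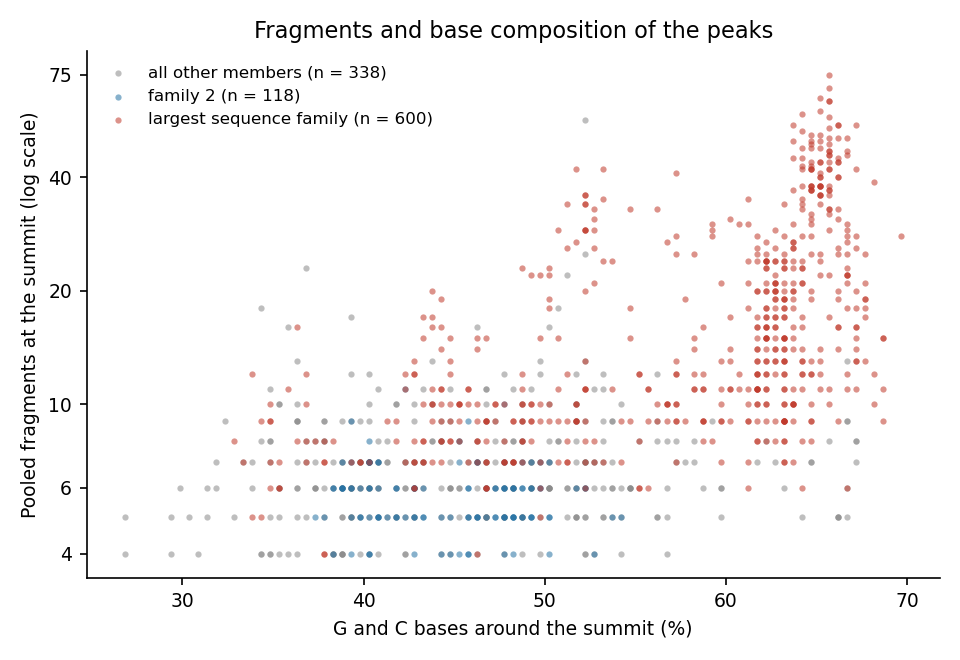
Fragments at the summit, pooled over both replicates (vertical axis, log scale), against the share of G and C bases in the 201 bp around the summit (horizontal axis), with 1 point for each of the 1056 peaks, red for the largest sequence family, blue for family 2 and grey for all others. Family 2 reaches at most 11 fragments, whereas the largest family reaches 75 and is crowded above 60% G and C.

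The summit sequence was repeated elsewhere in the genome for nearly all members. The 50 bases centred on the summit occurred at least a second time in the assembly for 978 peaks (92.6%, interval 90.9 to 94.0%), with a median of 704 copies (quartiles 92.3 and 1806). Copies over 1000 were found for 440 peaks (41.7%), from over 100 up to 1000 for 348, 11 to 100 for 119 and 2 to 10 for 71. The median fragment count was 6 at summits with 1 copy, 8 at 2 to 10, 9 at 11 to 100, 9 from there up to 1000 and 11 above 1000 copies. The share of the largest family rose over the same classes, at 14.1%, 29.6%, 45.4%, 54.6% and 73.6%. Copy number and family were not separated here. The authors' aligner wrote each read with several equally good sites at 1 of them at random. Copies were counted over 50 bases, whereas a fragment may reach into flanking bases that differ between copies. Over 100 bases, 81.3% of summits were repeated, and the strong summit in Scaper had 4 copies against 4870 over 50 bases. Where reads matched several copies equally well, a peak gives the place where they were put. The copy that was bound then cannot be told apart from the others.

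For 78 peaks, the 50 bases at the summit had no second exact match in the assembly. Whether all fragments at such a single-copy summit came from that place was not tested, since flanking bases may be repeated. These 78 peaks lay in 66 genes and had a median of 6 fragments, with a highest value of 53. The highest was in an intron of Lrp1b, a giant receptor of the LDL receptor family, with a fold enrichment of 12.4, and its 201 bases are given along the plus strand with the 50 bases at the summit in capitals.
Lrp1b, single-copy summit (chr2:42083657-42083857, plus strand): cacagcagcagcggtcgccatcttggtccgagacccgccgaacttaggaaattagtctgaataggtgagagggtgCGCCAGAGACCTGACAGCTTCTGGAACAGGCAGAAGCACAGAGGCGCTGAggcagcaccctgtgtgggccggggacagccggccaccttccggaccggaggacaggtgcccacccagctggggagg
This run belongs to the largest family as well. It aligned to 149 other members, its peak lay 1973 bp upstream of a reverse-transcriptase frame, and the element ran antisense to Lrp1b. The next highest, chosen like the first after their values were seen, lay in Robo2, an axon guidance receptor (38 fragments, 1672 bp upstream of a frame, also in the largest family), and in Erbb4, the neuregulin receptor (17 fragments, in another family). Of the 78 single-copy summits, 11 belonged to the largest family.

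The families differed in size by more than an order of magnitude. When the 301 bases around each summit were aligned with each other and joined at 80% identity over 150 bp, 809 of the 1056 peaks (76.6%) fell into 5 families and 99 (9.38%) aligned to no other member. Joining is by chains of alignments, so the members of a family need not all overlap in the element. Family 1 held 600 peaks (56.8%) in 290 genes on 20 chromosomes. Family 2 held 118 peaks in 103 genes, family 3 held 38 in 33 genes, family 4 held 34 in 32 genes and family 5 held 19 in 19 genes. Among only those pairs that aligned within these limits, the median identity was 95.2% within family 1 and 91.3% within family 2.

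Family 1 was the deepest and the richest in G and C. Its peaks had a median of 14 fragments (quartiles 9 and 25), a median fold of 6.79 (quartiles 5.15 and 9.54) and a median width of 445 bp. Their summit windows held a median of 61.7% G and C and 10 CpG dinucleotides. Family 2 had a median of 6 fragments (quartiles 5 and 6), a fold of 4.54, a width of 160 bp, 45.5% G and C and 1.5 CpG. Families 3, 4 and 5 had medians of 6, 7.5 and 6 fragments and folds of 4.67, 4.66 and 4.77. Their median G and C content was 47.3%, 37.3% and 38.8%. The interquartile ranges of fragments in family 1 and family 2 did not overlap. Copy number did not follow the same order, since the median summit had 1163 copies in family 1, 1010 in family 2, 311 in family 3, 1175.5 in family 4 and 659 in family 5. The 247 peaks outside these families had a median of 7 fragments and 42 copies.

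The families sat at different places relative to long reverse-transcriptase frames, the kind of frame that LINE-1 elements carry. No annotation with element names was used, so repeats are described here by soft-masking, copies and frames alone. A long frame was taken as a stretch of at least 1000 codons without a stop that encodes the catalytic residues of reverse transcriptase (YADD or FADD) and overlaps no annotated coding sequence, and chromosomes 1 to 19 and X held 4325 of them. Of the 1056 peaks, 363 (34.4%, interval 31.6 to 37.3%) had their summit 0 to 3 kb upstream of such a frame. Of these, 359 belonged to family 1, which is 59.8% of that family. The summits gathered 1 to 2 kb before the frame, where 321 of the 363 lay, with a median distance of 1547 bp (quartiles 1349 and 1733). The bin with the most was 1500 to 1750 bp upstream, with 151 peaks. The 12 peaks of family 2 within 8 kb of a frame all lay past its end, by a median of 280.5 bp and at most 6107 bp. Of the 11 peaks of family 4 within 8 kb, 6 were inside the frame and 4 upstream, by a median of 52 bp. No peak of family 3 was within 8 kb of a frame, and both peaks of family 5 that were lay inside it.

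**Figure D2:**
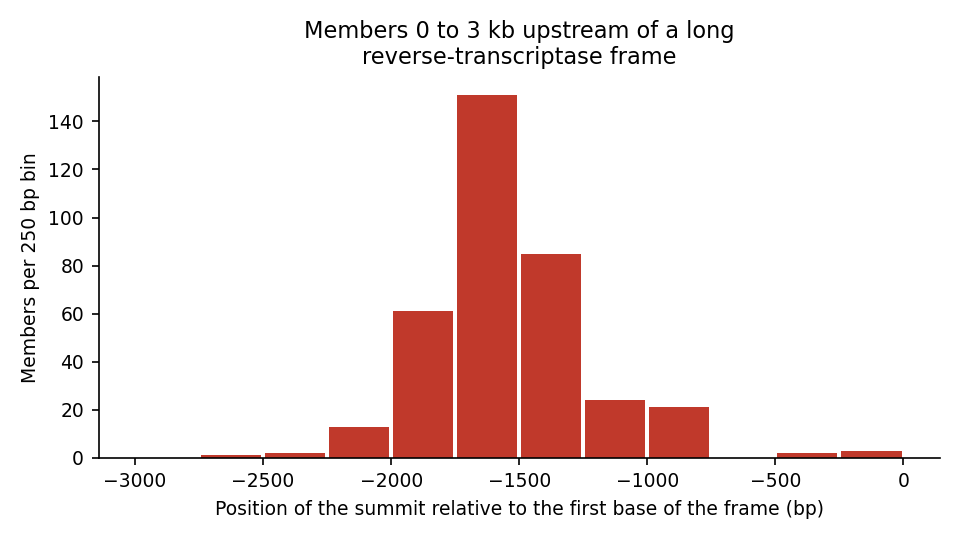
Number of peaks per 250 bp bin (bars) against the position of the summit relative to the first base of the nearest long reverse-transcriptase frame, in bp along the strand of the frame, for the 363 peaks that lay 0 to 3 kb upstream. The bars rise to 151 peaks at 1500 to 1750 bp upstream, and no peak lay in the bin 500 to 750 bp upstream.

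Peaks upstream of a frame were deeper than the rest. The 363 peaks upstream of a frame had a median of 19 fragments and a fold of 7.98, against 7 fragments and a fold of 5.04 for the 657 peaks with no frame within 8 kb. The 11 peaks inside a frame had a median of 8 fragments and a fold of 4.43, and the 18 past its end within 8 kb had 7 fragments and a fold of 4.77. Peaks with 14 or more fragments were upstream of a frame in 73.1% of cases and those with 4 to 6 fragments in 1.05%. Read from the other side, very long genes held 592 such frames, and 434 of these (73.3%, interval 69.6 to 76.7%) had a summit of any EHMT2 peak in the 3 kb upstream. A member lay upstream of 330 (55.7%). At a further 104 the peak was of another kind, and 158 frames had no peak.

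A tandem unit of about the length shown for Pkhd1 was a common feature of the strongest peaks. Within 800 bp around the summit, 150 peaks (14.2%) matched themselves at 70% identity or more when shifted by 100 to 350 bp. For 125 of these the shift was 200 to 220 bp, and the most frequent shifts were 208 bp (60 peaks), 212 bp (27), 214 bp (14) and 206 bp (10). Of the 125 peaks with such a unit, 123 belonged to family 1. Their median was 22 fragments and a fold of 9.15, against 12 fragments and a fold of 6.06 for the 476 peaks of family 1 that were not tandem by this measure.

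The 10 peaks with the highest −log10 q had fold enrichments of 13.9 to 18.5 and 52 to 75 fragments, and every one belonged to family 1. Among them were peaks in introns of Pkhd1 (75 fragments), Nol4 (69), Scaper (65), Syne1 (64), Arhgap6 (60), Ntng1 (59), Cadps2 (58) and Pde4d (55). Syne1 encodes the giant nuclear envelope protein nesprin-1 and Ntng1 the axon guidance protein netrin-G1. Cadps2 acts in the release of dense-core vesicles. In 8 of the 10, Pkhd1 not among them, the summit was upstream of a frame, by 1592 to 2149 bp. The best tandem shift was 212 bp in 9 of the 10, with self-identities from 49.8% up to 91.7% in Pkhd1. The element ran antisense to the gene in 7 of the 10.

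Elements at these peaks ran more often against the direction of their host gene than along it. A strand could be given to the 752 peaks of families 1, 2 and 4 from the frames near their members. In family 1, 364 of 369 members with a frame within 8 kb had the strand given to the family (98.6%), in family 2 12 of 12, and in family 4 10 of 11. Of the 752, 447 were antisense to the host gene (59.4%, interval 55.9 to 62.9%). The share was 59.7% in hosts on the plus strand and 59.1% in hosts on the minus strand. It was 58.8% (54.9 to 62.7%) in family 1, 58.5% (49.5 to 66.96%) in family 2 and 73.5% (56.9 to 85.4%) in family 4. Peaks upstream of a frame had an antisense share of 60.6% (55.5 to 65.5%). In family 1 peaks with no frame within 8 kb, whose strand came through alignments alone, it was 56.3% (49.8 to 62.5%). That interval includes equal shares of both directions. The frames themselves had the same bias, since 353 of the 592 frames in very long genes were antisense (59.6%, interval 55.6 to 63.5%).

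Signal was compared between the strands as well. Sense frames had a peak upstream in 173 of 239 cases (72.4%, interval 66.4 to 77.7%) and antisense frames in 261 of 353 (73.9%, 69.1 to 78.2%), and these intervals overlap over most of their length. Sense peaks had a median fold of 5.85 (interval 5.37 to 6.54) and antisense peaks of 5.72 (5.46 to 6.11), with a median of 11 fragments each. Reads with several equally good sites were placed at random among them, whether sense or antisense, which evens out signal between the strands. This comparison therefore cannot show whether signal depends on strand.

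Nearly all of the peaks were intronic, which the rule favours, since very long genes consist almost wholly of intron and promoters were left out. Of the 1056 summits, 1052 lay in an intron of the host, counting as intron any gap between the merged exons of its transcripts, and 10 were in an exon of some gene record. Of the 4 in an exon of the host, 3 were in Adarb2 (12 fragments), Rabgap1l (7) and Itpr1 (7). The intron around a summit had a median length of 103.9 kb (quartiles 45.7 and 187.4 kb), and the nearest host exon was a median of 22.2 kb away. The first intron held 159 peaks (15.1%). No such shares, lengths or distances were computed for other bases of these genes, so these values describe the peaks without a baseline. From the start of the gene to its end, 5 segments of equal length held 19.4%, 23.0%, 21.2%, 19.98% and 16.4% of the peaks, and the last segment held the fewest (interval 14.3 to 18.7%). Neighbouring peaks in a gene were a median of 92.1 kb apart. Of 665 neighbouring pairs, 124 were under 10 kb apart, and 89 of these (71.8%) joined members of the same family, against 174 of 541 pairs (32.2%) farther apart.

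Gene by gene, the number of peaks ran from 0 to 16. There were 134 genes with 1 peak, 200 with 2 to 4 and 57 with 5 or more, and the last group held 398 peaks (37.7%). The 15 genes with the most peaks held 158 (14.96%) in 7.66% of the summed span. A share above that of their span follows in part from choosing them by their number of peaks.

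Dmd, the gene of dystrophin, held the most. Dmd spans chrX:82948870-85206141 on the plus strand, and its 16 peaks had 4 to 54 fragments. Fragments at the summits, in order from the start of the gene, were 8, 10, 5, 4, 11, 6, 54, 6, 5, 9, 7, 17, 8, 22, 11 and 9. The highest of these, with a fold of 13.8, lay 946.1 kb into the gene in an intron of 17.7 kb. It was a tandem array with a 212 bp shift at 81.3% self-identity. The other 15 peaks stayed at 22 fragments or fewer. By family, 8 peaks were of family 1, and 3 of these lay upstream of a frame, by 1837, 1384 and 1111 bp. Of the 11 peaks with a strand, 8 were antisense to Dmd. Antisense peaks lay close together at 26.5 and 27.9 kb, at 1187.1 and 1187.5 kb, and at 1590.8 and 1596.7 kb into the gene. Whether such neighbours belong to the same element was not tested, so these counts are of peaks and not of separate elements.

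Lingo2, which encodes a leucine-rich repeat protein of neurons, held 14 peaks in 1245 kb, with 4 to 21 fragments. Family 1 supplied 4 of its peaks, and the highest of them was a tandem array with a 208 bp shift at 97.8% self-identity. The gene had 1 long frame, and none of its peaks was upstream of it. Cntnap2, a relative of the neurexins, differed in make-up. It held 13 peaks of 6 to 50 fragments, 11 of them in family 1. Ctnna3, an alpha-catenin of cell junctions, held 12 peaks of 5 to 47 fragments. Naaladl2 held 11 (4 to 29 fragments) and Erbb4 11 (5 to 17). Nrg1, which encodes neuregulin, a ligand of ErbB receptors, held 9 (4 to 20). Peaks numbered 10 in Pde4d, a phosphodiesterase that breaks down cyclic AMP (5 to 55 fragments), and 10 in Agbl4, a carboxypeptidase that trims polyglutamate from tubulin (5 to 29).

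Ptprd, a receptor phosphatase of synapses, held 9 peaks (4 to 51 fragments), as did Sntg1, a syntrophin that binds dystrophin (5 to 19). Pcdh15, a protocadherin of the hair cell tip link, held 8 (5 to 34), and Gpc5, a glypican, held 8 (5 to 19). Tenm1, a teneurin of neuronal adhesion, was 1 of 11 genes with 7 peaks, and it is named because its summed fragments were the highest of these. Its peaks had 5 to 46 fragments. In Sntg1, 6 of 7 stranded peaks were antisense, whereas in Pcdh15 6 of 7 were sense. With so few peaks per gene, the share in a single gene carries a wide counting error.

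Gm20388 stood apart among these genes. The record spans 4.43 Mb of chromosome 8 and encloses 71 other protein-coding genes, and it had no long frame and 51.1% G and C. None of its 11 peaks belonged to family 1 or had a strand. The median summit had 2 copies, and 4 summits were single-copy. One of the peaks reached 57 fragments. Without this record, the set comprised 1045 peaks in 390 genes.

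**Figure D3:**
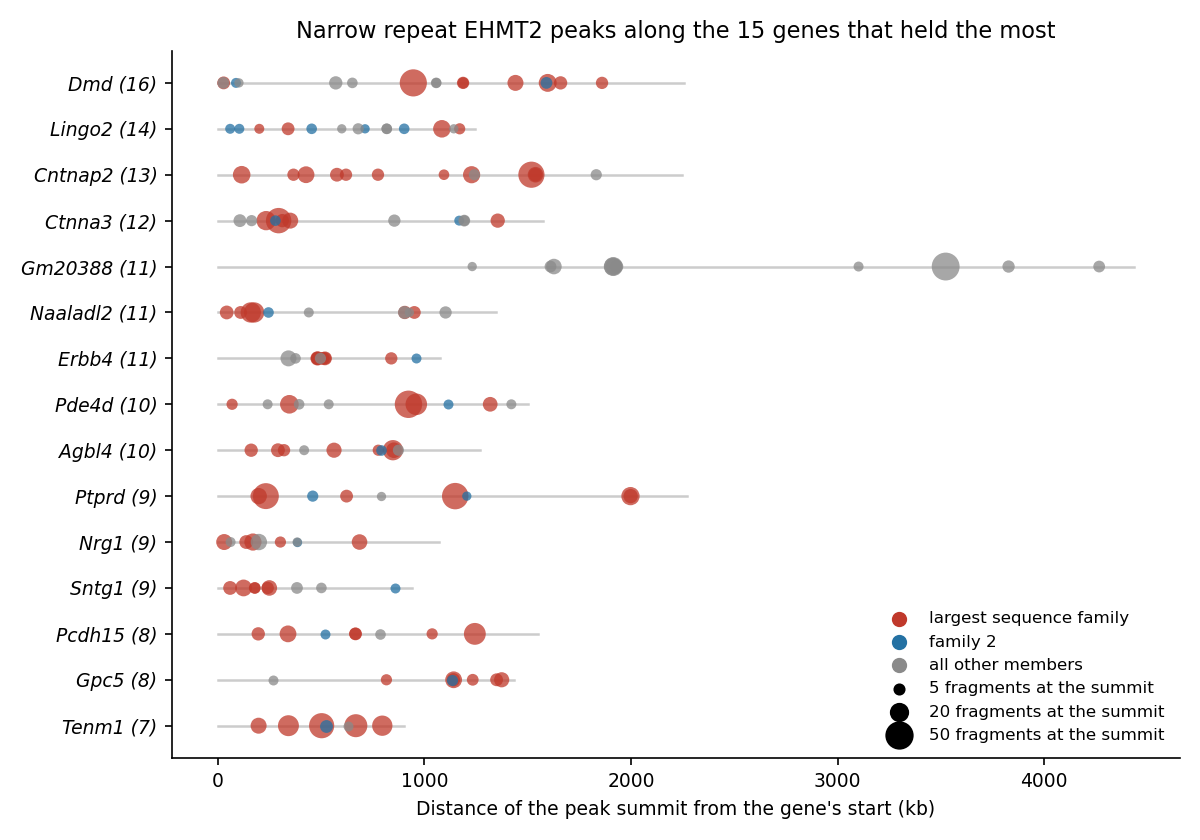
Position of each peak (points) along the 15 genes with the most peaks (rows, number of peaks in brackets), as distance from the start of the gene in kb, with point area growing with the fragments at the summit and grey lines for the span of each gene. Red points, the peaks of the largest family, occur at scattered positions in 14 of the genes, and Gm20388 has none.

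Per length, other genes led. Among genes with 5 or more peaks, Itgbl1, an integrin beta-like gene, had the highest density at 19.01 peaks per Mb of span. Its 6 peaks, in order along the gene, had 10, 38, 8, 24, 8 and 27 fragments, all were of family 1, and 5 were antisense. Its span of 315.6 kb held 5 long frames, and 49.2% of its bases were soft-masked. Next came 2210408I21Rik (14.6 per Mb), Csgalnact1, an enzyme of chondroitin sulfate synthesis (13.2), and Scaper (12.9). Dok6, an adaptor of receptor tyrosine kinases, had 12.6 per Mb, Creb5, a transcription factor, 12.1, Lingo2 11.2 and Pkhd1 10.7. Csgalnact1, Dok6 and Lingo2 reached this list with 1 long frame each.

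Several of the longest genes held none of these peaks. Among them were Rbfox1, a splicing regulator of 1526 kb, Frmpd4 (1106 kb), Rbms3, an RNA-binding protein (1057 kb), and Sox5, a transcription factor (954 kb). Rbfox1 and Sox5 held no EHMT2 peak of any kind, Frmpd4 held 1 and Rbms3 held 2. Long frames numbered 1 in Frmpd4, 1 in Sox5 and none in Rbfox1 and Rbms3. Among all 176 genes without a member, 97 held no peak of any kind.

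Genes with these peaks were richer in repeats than genes without them. The median gene with a peak had 28.7% soft-masked bases and 40.1% G and C, against 22.2% and 42.7% in genes without, and a long frame was present in 66.8% against 16.5%. The median span was 495.6 kb and 394.4 kb. Density rose with the number of frames in the gene. It was 1.61 peaks per Mb of span (interval 1.39 to 1.84) in the 277 genes with no frame, 3.54 (3.14 to 3.99) in the 142 with 1, 4.62 (4.20 to 5.07) in the 129 with 2 to 4, and 4.99 (4.17 to 5.93) in the 19 with 5 or more. The step was steeper for family 1, which went from 0.501 to 3.48 per Mb between the first and last class, than for all other peaks, which went from 1.10 to 1.51. Across the 567 genes, peaks per Mb correlated with frames per Mb (Pearson r 0.57, Spearman rho 0.54), with the soft-masked share (0.44 and 0.46) and, inversely, with G and C (-0.33 and -0.36). Genes are not replicates, the genes share one pooled list, and soft-masking is part of the rule, so these values are a description.

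Pooled over the genes of a class, density was higher in longer genes, whereas gene by gene it was only weakly related to span. Across the 567 genes, peaks per Mb and span had a Pearson r of 0.067 and a Spearman rho of 0.115. Genes of 300 to 500 kb had 2.87 peaks per Mb (2.58 to 3.18), those of 500 kb to 1 Mb 3.24 (2.92 to 3.58) and those of 1 Mb or more 3.74 (3.34 to 4.18), and the intervals of the shortest and longest class did not overlap. The antisense share was 64.5%, 57.9% and 55.6% in these classes, with overlapping intervals. Chromosome X had 4.30 peaks per Mb of very long gene (3.35 to 5.44) and the autosomes together 3.16 (2.97 to 3.37), and these intervals overlap slightly. Dmd held 16 of the 69 peaks on chromosome X. Among autosomes the values ran from 1.66 on chromosome 7 to 4.09 on chromosome 1.

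By function, a few gene lists lay above or below the 3.22 peaks per Mb (3.03 to 3.42) of all 567 genes. The lists are families and functional groups that overlap in part, and only their genes of 300 kb or more are counted. Genes of the dystrophin complex and basement membrane had 5.94 peaks per Mb (4.32 to 7.98), with 44 peaks in 6 of 8 genes. Dmd (16 peaks), Sntg1 (9) and Sgcz, a sarcoglycan (6), held most of them, and Utrn, the dystrophin relative utrophin, and Col4a6, a basement membrane collagen, held none. Genes of common fragile sites, regions that break under replication stress, had 4.30 per Mb (3.49 to 5.25), with 98 peaks in 15 of 16 genes. Their leading members were Dmd, Ctnna3, Naaladl2 and Lrp1b (7), and Wwox, at 913.1 kb, held none. Without Dmd, left out after the values were seen, the dystrophin list had 5.44 per Mb (3.62 to 7.87). The fragile site list then had 3.998 per Mb (3.18 to 4.96), an interval that includes the value of all genes.

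RNA-binding proteins were lowest, at 0.413 per Mb (0.050 to 1.49), with 2 peaks in 6 genes. Khdrbs2 and Celf2 held 1 each, and Rbfox1, Rbfox3, Msi2 and Rbms3 held none. Developmental transcription factors had 1.74 per Mb (1.12 to 2.56), with 25 peaks in 14 of 27 genes, led by Dach2 (4), Sox6 (3), Esr1 (3) and Foxp2 (3). Frames numbered 0.620 and 1.18 per Mb in these lists, against 1.81 over all 567 genes, 2.43 in the dystrophin list and 2.196 in the fragile site list. The order of frames was not that of peaks over all lists, as channels had 1.11 frames per Mb, and GABA-A subunits (3.18), phosphodiesterases (3.01) and cadherins (2.97) had the most.

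The neuronal lists straddled the overall density. Synaptic and neuronal adhesion genes had 3.35 per Mb (2.75 to 4.04), with 110 peaks in 27 of 32 genes, most in Cntnap2 (13), Ptprd (9), Tenm1 (7) and Lsamp (7). Cadherins and protocadherins had 3.69 (2.51 to 5.24), with 31 peaks in 10 of 11 genes, led by Pcdh15 (8), Cdh12 (5), Cdh13 (5) and Cdh18 (3). Glutamate receptors had 2.98 (1.91 to 4.44), with 24 peaks in 8 of 13 genes, among them 6 in Grm7 and 3 in Grid1. GABA-A receptor subunits had 2.55 (0.694 to 6.52), from 3 peaks in Gabrb1 and 1 in Gabrg3. Axon guidance genes had 2.45 (1.53 to 3.70), with 22 peaks in 13 of 17 genes, led by Unc5c (4), Robo2 (3), Epha3 (2) and Ntng1 (2). Channels and ryanodine receptors had 2.43 (1.56 to 3.61), with 24 peaks in 13 of 19 genes, led by Kcnip4, Cacna2d1 and Cacna2d3 with 3 each and Ryr3 with 2. Cyclic nucleotide phosphodiesterases had 4.10 (2.29 to 6.76), with 10 of the 15 peaks in Pde4d, 2 each in Pde10a and Pde1c and 1 in Pde11a. The intervals of all 7 neuronal and signalling lists included the overall value.

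**Figure D4:**
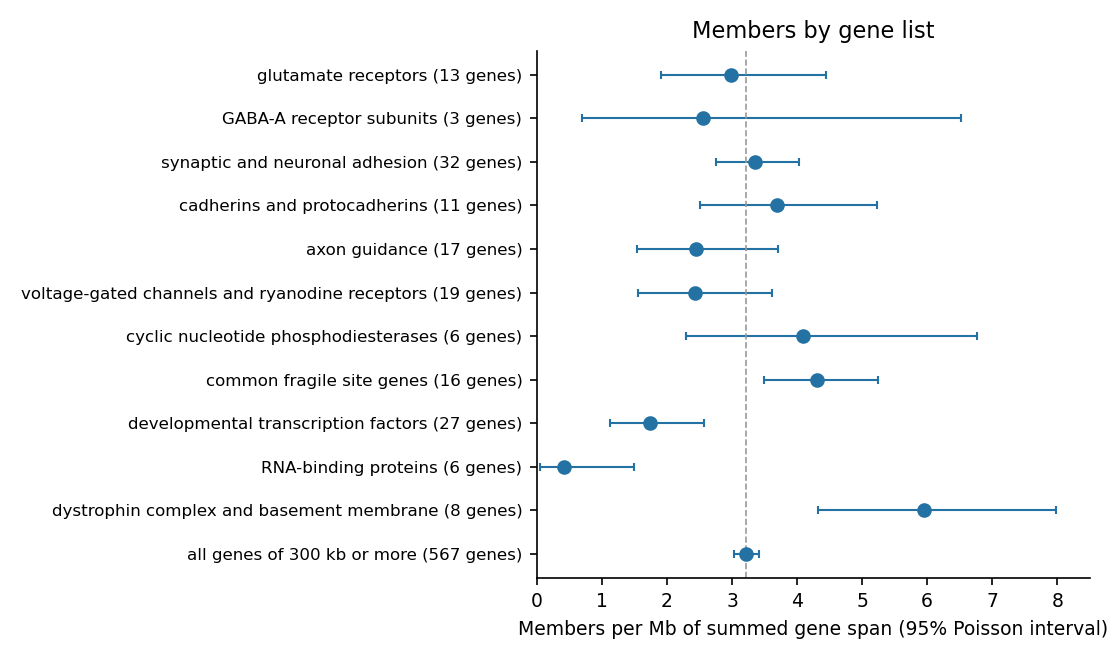
Peaks per Mb of summed gene span (points) with 95% Poisson intervals (bars) for the genes of 300 kb or more in 11 gene lists and for all 567 genes of 300 kb or more, whose value of 3.22 is the dashed line. The dystrophin list (5.94) and the fragile site list (4.30, or 3.998 without Dmd) lie to the right of the line, and transcription factors (1.74) and RNA-binding proteins (0.413) to the left.

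Short sequence motifs were counted in family 1 and in the other peaks. The families were grouped by sequence and differ in G and C, and no background matched for composition was made. Differences in motifs therefore restate the grouping in part. The YY1 core (AANATGGC) was found on either strand of the 201 bases around the summit in 222 of the 1056 peaks (21.0%, interval 18.7 to 23.6%), against 18.3% of all 12554 peaks on chromosomes 1 to 19, X and Y. Within family 1 the share was 33.3% (29.7 to 37.2%) and outside it 4.82% (3.21 to 7.20%). The GC box of Klf and Sp factors (GGGCGG) was in 21.5% of family 1, in 1.75% of the others and in 12.6% of all peaks. The E-box (CACGTG) was in 4.17% of family 1 and 0.439% of the others, with 2.63% of all peaks. The TATA box (TATAAA) had the opposite order, with 0.167% of family 1, 11.4% of the others and 5.93% of all peaks.

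Other motifs were found in few peaks of any kind. The Oct octamer (ATGCAAAT) was in 11 peaks (1.04%, against 1.12% of all peaks) and the Sox motif (CATTGTT) in 6 (0.568%, against 1.22%). The site of ESRRB (TCAAGGTCA) and the cAMP response element (TGACGTCA) were in none, which allows a share of up to 0.362%, with 0.167% and 0.064% of all peaks. A match of letters does not show that a factor was bound.

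Set beside the same kind of peak elsewhere, very long genes had a density per Mb between those of shorter genes and of the space outside genes. By the same rule, 1212 narrow repeat peaks lay in protein-coding genes under 300 kb and 6806 outside protein-coding genes. Counted over bases outside promoters, the density was 3.34 peaks per Mb in very long genes (3.14 to 3.54), 1.81 (1.71 to 1.92) in shorter genes and 4.78 (4.66 to 4.89) outside. Per Mb of soft-masked sequence it was 11.7 (11.04 to 12.5), 6.65 (6.28 to 7.03) and 12.05 (11.8 to 12.3), so that the intervals of very long genes and of the space outside genes overlapped. Long frames had a similar order, at 1.87, 0.728 and 2.28 per Mb.

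The density next to frames and the density away from them both had this order. Peaks 0 to 3 kb upstream of a frame numbered 1.15 per Mb in very long genes (1.03 to 1.27), 0.440 in shorter genes (0.391 to 0.493) and 1.37 outside (1.31 to 1.44). Peaks with no frame within 8 kb numbered 2.08 (1.92 to 2.24), 1.33 (1.25 to 1.42) and 3.27 (3.18 to 3.37). As a share of all peaks, those upstream of a frame were most frequent in very long genes, at 34.4% (31.6 to 37.3%) against 24.3% (21.9 to 26.7%) and 28.7% (27.7 to 29.8%). Counted per frame, the intervals of both gene classes overlapped, as 73.3% of frames in very long genes, 72.8% (68.7 to 76.6%) in shorter genes and 68.7% (67.1 to 70.3%) outside had any EHMT2 peak upstream. Random placement of reads among matching copies also evens out signal between these places, which limits the comparison per frame.

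**Figure D5:**
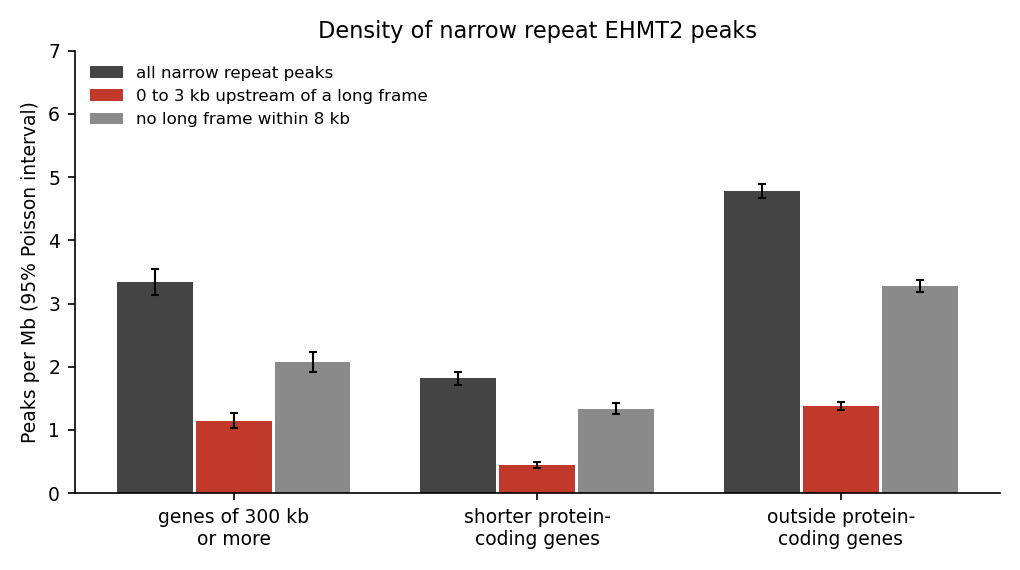
Narrow repeat EHMT2 peaks per Mb (bars, with 95% Poisson intervals) in protein-coding genes of 300 kb or more, in shorter protein-coding genes and outside protein-coding genes, for all such peaks (dark), for those 0 to 3 kb upstream of a long reverse-transcriptase frame (red) and for those with no such frame within 8 kb (grey). Very long genes stand between the other classes in each of the series, at 3.34, 1.15 and 2.08 per Mb.

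Strength and composition were set side by side too. The median fold was 5.31 in very long genes, 5.14 (5.04 to 5.25) in shorter genes and 5.23 (5.19 to 5.27) outside, and the median fragments were 9, 8 and 8. The median G and C content was 51.7%, 49.8% and 49.8%, and tandem units were found in 14.2%, 14.9% and 12.7%. Repeated summit sequences were found at 92.6% of peaks in very long genes, 84.8% (82.7 to 86.7%) in shorter genes and 93.2% (92.6 to 93.8%) outside. Among peaks within 8 kb of a frame, the frame was antisense to the host in 62.2% (57.3 to 66.8%) in very long genes and 62.9% (57.5 to 68.0%) in shorter ones. None of these differences could be tested on 1 pooled list.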

How the data were processed

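The 2 replicates of anti-HA ChIP-exo of DMSO-treated EHMT2-dTAG mESCs made up a single group. Per the submitters' processing notes, the authors used STAR 2.7.10, Picard 2.26.0, SAMtools 1.14, bedtools 2.30.0, MACS2 2.2.6 and deepTools 3.5.1 on mm10. Reads with several equally good sites were written by the authors at 1 of them, drawn at random. Replicates were merged, and peaks with a q-value below 0.05 were kept without a control library. The deposited list gives each peak's fold enrichment, a ratio of pileup to local background, and the −log10 of the p-value and q-value at its summit, as the authors' peak caller wrote them. It also gives the offset of the summit from the start of the peak. The depth of each library is not given in the sources used here.

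Whole fragments at each summit were recovered from the deposited fold and −log10 p, which they matched within 0.0001 for all 12554 peaks on chromosomes 1 to 19, X and Y. Bases and soft-masking came from GRCm38.p6 and genes from GENCODE vM21, and a summit in several genes was given to the longest. Copies of a summit were counted as exact matches in the assembled chromosomes, reading both strands. Sequence families were single-linkage groups of minimap2 2.31-r1302 alignments. Long frames were stop-to-stop stretches, and upstream distances run from their first base. Intervals are Wilson intervals for shares, Poisson intervals for densities and order-statistic intervals for medians, at 95%, and cover counting error only. Scripts ran in Python 3.11.15 and were tested on simulated data.

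The peaks, the gene lists and the measures were chosen with earlier results of these data known. Named were the 15 genes with the most peaks, the 8 densest with 5 or more, the 5 longest without, the 5 largest families, the 10 peaks ranked first by −log10 q, and in each list up to 4 genes with the most peaks. Some genes that this rule names are not reported here. Gene densities divide by gene span, and densities by place divide by bases outside promoters. Alternatives were other q-value, span, soft-masking and promoter limits, placement by midpoint, merging of neighbours, a longer summit sequence, other frames, orientation by single frames and a stricter identity.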

Additional observations from a re-analysis of the deposited data

How the results depend on the processing

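No paired analysis was possible because both replicates were pooled into 1 list before peaks were called, and no replicate could be left out for the same reason. Of 68 values recomputed under other settings, 50 stayed within 1.5 times a count or within the counting interval of a share, density or median, and 18 moved beyond it. At a q-value of 0.01 or lower, there were 3.04 peaks per Mb, 94.2% had a repeated summit, the median fold was 5.54 and 79.7% were in the 5 largest families. At 0.001 or lower, these were 2.49 per Mb, 94.9%, 6.08 and 80.2%, and 43.3% lay 0 to 3 kb upstream of a frame. With a span of 500 kb or more, 687 peaks lay in 194 genes, at 3.57 per Mb. Where 80% or more of the bases had to be soft-masked, 94.7% had a repeated summit and 80.1% were in the 5 largest families. Merging peaks less than 10 kb apart left 2.90 per Mb and a median fold of 5.62. Summit sequences of 100 bp were repeated at 81.3% of peaks. Frames of at least 600 codons raised the upstream share to 44.3%. The antisense share stayed within its interval under each alternative run for it. Leaving out the Gm20388 record, an alternative chosen after seeing the data, moved none of the 8 values beyond these limits. Shallow depth limits all of these values, since 27.0% of the peaks rested on 4 to 6 fragments, and without a control library background at repeats was not measured.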
